A study of Homo sapiens with 3 samples.

Results

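The genes described here encode cyclin E1 and cyclin E2 (CCNE1 and CCNE2), the transcription factors E2F1 and E2F2, and the phosphatase CDC25A, which together control the entry of cells into S phase. They were taken as the rows of the value table whose annotated gene symbol was 1 of these 5 names. All 5 were found, with 1 probe set each, among 14884 named genes, and all 5 were among the 7442 genes kept by a filter on the mean level (at least 6.78 on the log2 scale, the median over named genes). The 5 were chosen with earlier results of these arrays known, so the differences below are a description, without a test.

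The study asked which genes differ when WDR5 is depleted in neuroblastoma cells. WDR5 is a scaffold protein shared by the enzymes that add methyl groups to lysine 4 of histone H3. BE(2)-C cells, a human neuroblastoma line in which MYCN is amplified, received WDR5 siRNA-1, WDR5 siRNA-2 or a control siRNA for 40 hours, and total RNA was read on HuGene-2_0-st whole-transcript arrays. Each of the 3 groups had 1 array, all of the same line, and no untransfected group was analysed here, so every value stands without a replicate error and a ratio sets 1 array against another.

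Cyclin E binds and activates the kinase CDK2 late in G1, and the active kinase phosphorylates the retinoblastoma protein and proteins at replication origins. Phosphorylated retinoblastoma protein releases E2F1 and E2F2, which activate the genes needed for DNA synthesis, CCNE1, E2F1 and CDC25A among them. CDC25A removes inhibitory phosphates from CDK2. MYC proteins act on the same step in many cell types, and several of these genes are cited as MYC targets.

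The sequences before the starts of the genes are shown because E2F genes and cyclin E are textbook examples of promoters that E2F itself binds. RefSeq windows on GRCh38.p14 matched 4 of the 5 genes. For each, the 250 bases before the annotated start are printed on the strand of the gene, and none of the transcript. The window of CCNE1 lies at chr19:29811741-29811990 on the plus strand. The window of E2F1 lies at chr20:33686386-33686635, that of E2F2 at chr1:23531234-23531483 and that of CDC25A at chr3:48188418-48188667, all on the minus strand. Capitals mark matches to the E2F site searched, which was any of TTTCCCGC, TTTCGCGC, TTTGCCGC and TTTGGCGC on either strand.
CCNE1: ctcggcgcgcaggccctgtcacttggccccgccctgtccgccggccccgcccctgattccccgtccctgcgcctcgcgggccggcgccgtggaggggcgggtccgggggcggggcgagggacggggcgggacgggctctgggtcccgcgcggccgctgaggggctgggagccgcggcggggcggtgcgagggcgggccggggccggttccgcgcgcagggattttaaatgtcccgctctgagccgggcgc
E2F1: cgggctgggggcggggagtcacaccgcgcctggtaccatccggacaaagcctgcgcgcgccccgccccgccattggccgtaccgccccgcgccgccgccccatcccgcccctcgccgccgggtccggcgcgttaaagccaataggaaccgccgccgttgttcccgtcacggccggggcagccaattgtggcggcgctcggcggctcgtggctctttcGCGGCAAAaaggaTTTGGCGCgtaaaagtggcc
E2F2: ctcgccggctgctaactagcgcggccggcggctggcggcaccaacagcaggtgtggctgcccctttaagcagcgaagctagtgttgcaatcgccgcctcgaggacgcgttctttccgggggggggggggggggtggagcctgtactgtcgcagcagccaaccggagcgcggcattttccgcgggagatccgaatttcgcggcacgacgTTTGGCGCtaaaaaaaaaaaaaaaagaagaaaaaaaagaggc
CDC25A: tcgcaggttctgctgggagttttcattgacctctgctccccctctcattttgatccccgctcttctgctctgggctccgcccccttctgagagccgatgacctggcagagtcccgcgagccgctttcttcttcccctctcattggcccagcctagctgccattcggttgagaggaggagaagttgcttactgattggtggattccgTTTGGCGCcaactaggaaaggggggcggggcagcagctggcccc

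E2F1 had 2 matches, from -33 to -26 on the opposite strand and from -20 to -13 on its own strand, counted in bases from the start. E2F2 had 1 match, from -42 to -35, and CDC25A had 1, from -44 to -37, both on the strand of the gene. The window of CCNE1 held 0 matches to these letters in 300 bases (the printed 250 and the first 50 of the transcript, the length searched for every gene). Of all 35116 windows of this length in the table, 3.31% held at least 1 match. Counted by gene, with a match in any window of the gene, the share was 3.99%. Both shares cover genes of every level. Among kept genes with a window, 421 had a match and 5565 had none, a larger share by gene. The E-box CACGTG, the letters that MYC and MAX dimers bind, was found in 0 of the 4 windows and in 7.26% of all windows. Counted by gene, the share over all genes with a window was 8.77%. Among kept genes with a window, 793 had an E-box and 5193 had none. The GC box GGGCGG, searched on both strands, was found 7 times for CCNE1, 6 times for E2F1, 0 times for E2F2 and 2 times for CDC25A, and in 45.0% of all windows. The searched motifs did not overlap one another in these windows. A match is a run of letters and not a measured site of binding.

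**Figure D1:**
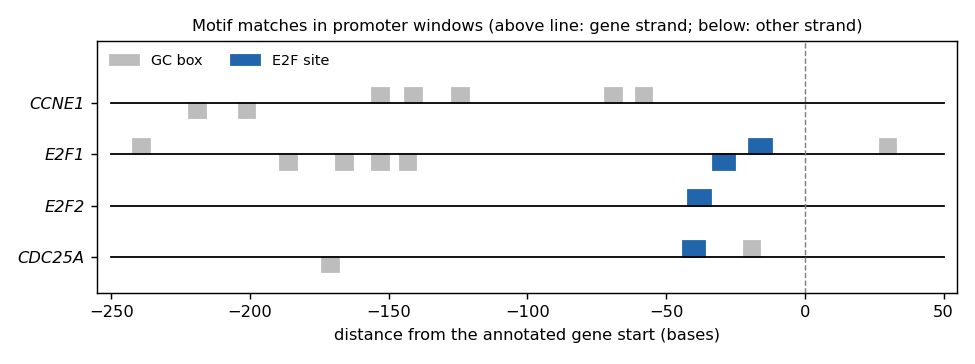
Positions of motif matches in the RefSeq windows of 4 genes, from 250 bases before to 50 bases after the annotated start (x axis, bases). Blue boxes are matches to the E2F site and grey boxes matches to the GC box, above the line on the strand of the gene and below it on the other strand. The E2F matches of E2F1, E2F2 and CDC25A lie between -44 and -13, and CCNE1 has 7 GC boxes.

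The transcript that the siRNAs target was lower on both WDR5 siRNA arrays. WDR5 had a log2 level of 7.90 (siRNA-1) and 7.90 (siRNA-2), against 9.46 with the control siRNA, which is 2.95-fold lower with each. The siRNA values were exactly equal. In 64.7% of all rows 2 or more arrays held the same value, from an unknown cause. The equal WDR5 values therefore do not count as separate measurements of the same depletion. Of 13 markers of adrenergic neuroblastoma 11 were measured, meaning that a row is named for them in the annotation used here, and all 11 were kept. DBH, the gene of the enzyme that makes noradrenaline, stood at 9.58 with siRNA-1 and 10.90 with siRNA-2, against 10.38 with control. CHGA, the chromogranin A gene, stood at 10.40 and 11.60, against 10.87, and these were the markers that differed most between the siRNA arrays. Of the 11 markers 7 were lower on the siRNA-1 array than on the siRNA-2 array and 2, HAND2 and GATA3, higher, by log2 ratios of 0.33 and 0.30, while TH and DDC were equal. The median log2 ratio of the markers was -0.06 with siRNA-1 and 0.16 with siRNA-2. Of the 7 Schwann and stromal markers 3 were measured, and SOX10, S100B and DCN each had the same value on all 3 arrays. Of the 7 leukocyte and endothelial markers 3 were measured and only CD68 was kept, with ratios to control of 0.38 and 0.08 on the log2 scale. PECAM1 and VWF, of endothelium, were below the filter level. PECAM1 had ratios of 0.59 and 0.83, and VWF had the same value on all 3 arrays. The part of these differences in the results below was not tested.

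Of the 5 genes, only CCNE1 and E2F1 were lower with both siRNAs by 1.5-fold or more, the limit used here to call a difference. That limit was passed by 63 of the 7442 kept genes in the lower direction, or 0.847%, and by 46, or 0.618%, in the higher direction. With siRNA-1 alone 4 of the 5 genes passed it (CCNE1, E2F1, E2F2 and CDC25A), beside 4.6% of kept genes. With siRNA-2 alone 2 passed it (CCNE1 and E2F1), beside 4% of kept genes. None of the 5 was higher by as much with either siRNA, a limit that 2.24% of kept genes passed with siRNA-1 and 2.19% with siRNA-2. Because the genes were chosen from these ratios, nothing is read from the distance between these shares. The median log2 ratio of the 5 was -0.96 with siRNA-1 and -0.45 with siRNA-2, and that of all kept genes was 0 with each. Both ratios use the same control array. In RNA from whole cultures, fewer cells at a stage of the cell cycle and less RNA per cell cannot be told apart.

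**Figure D2:**
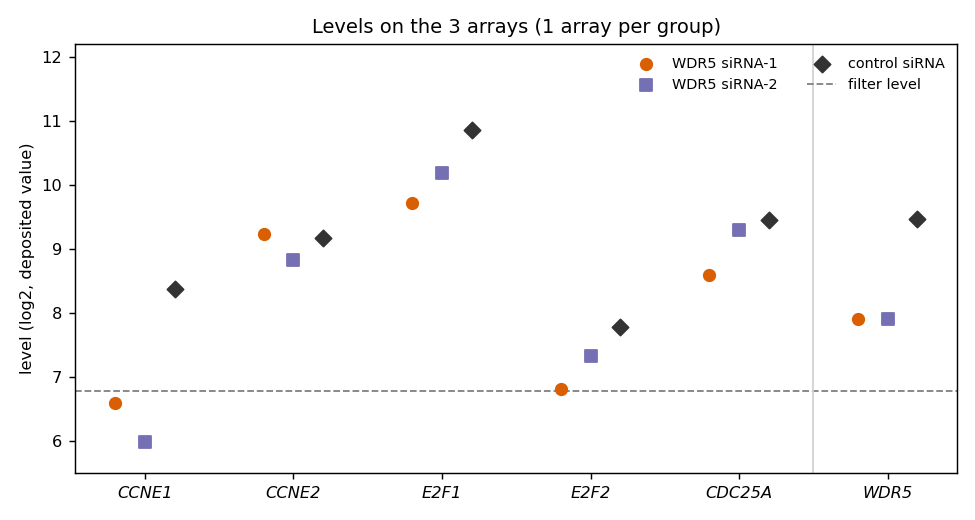
Deposited log2 level (y axis) of the 5 genes and of WDR5 on the 3 arrays, with WDR5 siRNA-1 as circles, WDR5 siRNA-2 as squares and control siRNA as diamonds, 1 array each and no error bars. The dashed line is the filter level of 6.78. CCNE1 lies below that line with both WDR5 siRNAs, and CCNE2 alone has its highest value with siRNA-1. Levels of different probe sets are not comparable with each other.

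CCNE1, the gene of cyclin E1, had a log2 level of 6.59 (siRNA-1) and 5.98 (siRNA-2), against 8.36 with control. This was 3.43-fold below control with siRNA-1 and 5.23-fold with siRNA-2, which left 29.1% and 19.1% of the control value. Among kept genes this was the lowest ratio with siRNA-2 and the third lowest with siRNA-1. Both siRNA values were below the filter level, and CCNE1 was kept through its control value. The array has 23 background rows, each for probes of 1 GC content, with levels from 1.75 to 9.26, so a level alone does not show whether a transcript was above background and the size of this fold is uncertain.

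CCNE2, the gene of cyclin E2, which binds CDK2 in the same way as cyclin E1, did not follow CCNE1. Its log2 level was 9.23 with siRNA-1 and 8.82 with siRNA-2, against 9.17 with control. That was 1.04-fold higher with siRNA-1 but 1.27-fold lower with siRNA-2, and neither value reached 1.5-fold. Both cyclin E genes were nevertheless lower with siRNA-2 than with siRNA-1. Set against siRNA-2, the siRNA-1 array was 1.52-fold higher for CCNE1 and 1.33-fold higher for CCNE2. Of kept genes, 4.21% were higher there by 1.5-fold or more. Both CCNE1 values in this comparison were below the filter level, so its 1.52-fold is uncertain.

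E2F1 had a log2 level of 9.72 (siRNA-1) and 10.18 (siRNA-2), against 10.86 with control. The difference from control was 2.20-fold with siRNA-1 and 1.60-fold with siRNA-2, and its values stayed above all 23 background rows on each array. E2F2, its close relative, stood at 6.81 with siRNA-1 and 7.32 with siRNA-2, against 7.77 with control. The difference was 1.95-fold with siRNA-1 and 1.37-fold with siRNA-2, the second below the 1.5-fold limit, and the value with siRNA-1 lay just above the filter level. The order of the arrays was the same for both E2F genes, with siRNA-1 lowest and control highest. All values of CCNE1, CCNE2 and E2F2 lay within the range of the background rows, 1.75 to 9.26. So did CDC25A with siRNA-1 and WDR5 with both siRNAs. The size of the folds drawn from these values is therefore uncertain too.

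CDC25A had a log2 level of 8.59 (siRNA-1) and 9.30 (siRNA-2), against 9.45 with control. With siRNA-1 it was 1.81-fold lower than control, but only 1.11-fold lower with siRNA-2. Of the 5 genes it differed most between the WDR5 siRNAs, being 1.64-fold lower on the siRNA-1 array, a direction in which 4.65% of kept genes differed by at least 1.5-fold. E2F1 and E2F2 were also lower on the siRNA-1 array than on the siRNA-2 array, by 1.38-fold and 1.42-fold. Without replicates it is unknown which of these differences between neighbouring arrays exceed the spread of the assay.

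**Figure D3:**
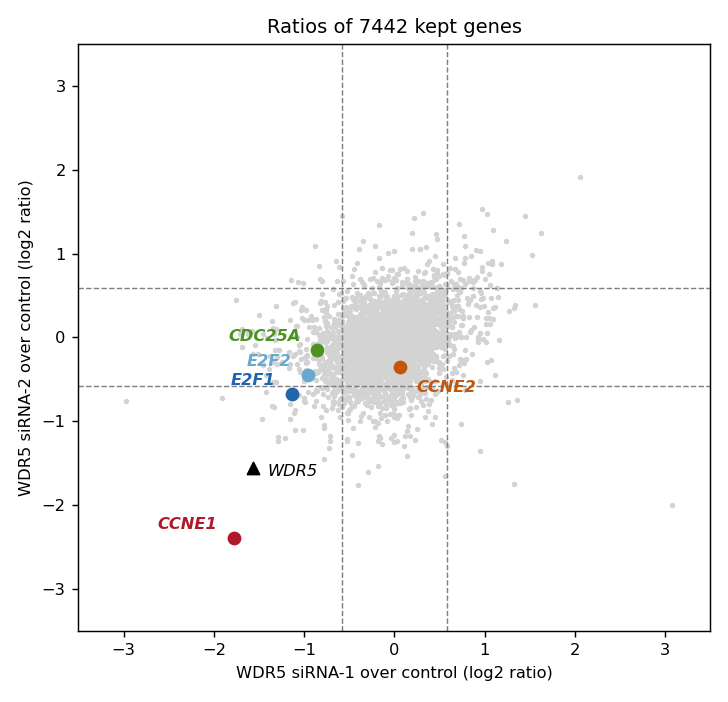
Log2 ratio to control of each of the 7442 kept genes with WDR5 siRNA-1 (x axis) and WDR5 siRNA-2 (y axis), with the 5 genes in colour, WDR5 as a black triangle and other genes in grey. Dashed lines mark 1.5-fold. CCNE1 and E2F1 lie in the lower left corner beyond both limits, E2F2 and CDC25A pass the limit of siRNA-1 only, and CCNE2 passes neither. The axes share the control array.

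The kept genes most like each of the 5 were found by the Euclidean distance over the log2 ratios to control with both siRNAs. CCNE1 had 0 genes within 0.1 of it. WDR5 was nearest, at a distance of 0.85, followed by CERK at 1.254 and SEPTIN14 at 1.30. E2F1 had 1 gene within 0.1, RPL29, a ribosomal protein gene whose many pseudogenes make its value uncertain, at 0.083, and then KREMEN1 at 0.12 and HUNK at 0.14. E2F2 had 6 genes within 0.1, the nearest being THEM6, RECK and N4BP2 at 0.043 to 0.070. CDC25A had 13, led by ZBTB33, HMGN4 and BLMH at 0.061 to 0.063. CCNE2 had 148, led by TMEM60, PRDM4 and RNF41, so its pair of ratios was a common one on these arrays. The 5 genes were chosen with these ratios known, so nothing is read from the lack of genes near CCNE1. CCNE1, SEPTIN14 and HUNK were below the filter level on both siRNA arrays and were kept through their control values, so their distances are uncertain. Among the 5 genes the nearest pair was E2F1 and E2F2, 0.28 apart, then E2F2 and CDC25A, 0.32 apart. CCNE1 and CCNE2 were the most distant pair, at 2.75. Likeness over 2 ratios that share a control says nothing of common function.

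The other parts of the pathway were read from 9 lists of 113 listed genes, written from general knowledge. Of the other E2F and DP genes 5 of 8 were measured and kept. E2F7, which encodes an atypical E2F that represses E2F targets, was the 1 member at least 1.5-fold lower with both. It had log2 levels of 7.88 (siRNA-1) and 8.66 (siRNA-2), against 9.31 with control, and was 2.69-fold and 1.57-fold lower. Like E2F1 and E2F2, it was lowest with siRNA-1. E2F8, the other atypical E2F, had a log2 ratio to control of -0.09 with siRNA-1, and one of -0.25 with siRNA-2. E2F3, the third activator, was 1.06-fold higher (siRNA-1) and 1.13-fold lower (siRNA-2). The DP partners of E2F stayed near control, with ratios of -0.01 and 0.00 for TFDP1 and of 0.05 and 0.06 for TFDP2. The list median was -0.01 with siRNA-1 (0.02 after quantile normalization and 0.01 after centring) and -0.17 with siRNA-2.

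CDK2, the kinase partner of cyclin E, had a log2 level of 9.01 (siRNA-1) and 10.06 (siRNA-2), against 10.35 with control. It was 2.54-fold lower with siRNA-1 but 1.23-fold lower with siRNA-2, and was the 1 of 7 kept G1 cyclin and kinase genes past 1.5-fold with either siRNA. CDK4 had a log2 ratio of -0.52 with siRNA-1 and one of -0.04 (0.04 after quantile normalization) with siRNA-2, and its relative CDK6 had -0.11 and -0.39. CCNA2, the cyclin A2 gene, had 0.11 and -0.23. CCND1, the cyclin D1 gene, had 0.09 with siRNA-1 and the same value as control with siRNA-2. The list medians were -0.07 and -0.04, the second being 0.04 after quantile normalization. Of 7 inhibitors of these kinases only CDKN2A had a row named in the annotation used here, with the same value on all 3 arrays, and the others were not analysed here. Such exact ties were frequent: 23.7% of kept genes had the same value with siRNA-1 as with control and 25.7% with siRNA-2. Each of the 5 genes had a different value on every array. As the 5 were chosen with their ratios known, nothing is read from this.

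All 11 genes of the pocket proteins and the MuvB complex, which hold E2F targets silent and later activate mitotic genes, were kept, and 0 passed 1.5-fold with both siRNAs. RB1, the retinoblastoma gene, had the same value on both siRNA arrays, 1.13-fold higher than control. RBL2, which encodes the pocket protein p130, had a log2 ratio of -0.35 with siRNA-1 and one of -0.54 with siRNA-2. RBL1, which encodes p107, had the control value with siRNA-1 and a ratio of -0.15 with siRNA-2. LIN54, the DNA-binding subunit of MuvB, had 0.38 and 0.29, and LIN52 had 0.05 and -0.77, past the limit with siRNA-2. MYBL2, which encodes B-Myb, also had equal siRNA values, with a ratio of -0.32, and FOXM1 had -0.45 and -0.09. The list medians were 0.05 and -0.15, on opposite sides of 0.

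The next lists hold genes that degrade these proteins or check the cell cycle. Of 11 listed genes of the ubiquitin ligases for cyclin E, E2F1 and CDC25A, 7 were kept. FBXW7, SKP2 and RBX1 had no row named in the annotation used here, and SKP1 was below the filter. These ligases were therefore seen only in part. Of the 7 kept genes 0 passed 1.5-fold with either siRNA and both medians were 0. CCNF, the cyclin F gene, was 1.16-fold lower with each siRNA, and CKS1B, a CDK subunit gene, had log2 ratios of -0.07 and -0.11. The ligase genes CUL1 (0.06 and 0.21) and BTRC (0.09 and 0.09) were higher with both, and FBXO5, an inhibitor of the anaphase-promoting complex, had 0.01 and -0.22. Of 8 kept CDC25 relatives and checkpoint genes, 0 passed with both and 2 passed with siRNA-2. Those were CHEK2, a checkpoint kinase gene, with ratios of -0.37 and -0.94, and CLSPN, which encodes claspin, with -0.41 and -0.71. CDC25B, a relative of CDC25A that acts at mitosis, had the control value with siRNA-1 and a ratio of 0.09 with siRNA-2. CDC25C, another, had -0.14 and -0.49. The mitotic kinase gene PLK1 had -0.15 and -0.17, and WEE1, a kinase that opposes CDC25, had -0.02 and -0.08.

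The E2F targets of S phase were mostly lower, by small amounts. Of 57 genes on the 3 lists of such targets 32 were kept. With siRNA-1 2 of them were at least 1.5-fold lower, with siRNA-2 6 and with both 1, beside 4.6%, 4% and 0.847% of kept genes, and 0 were higher by as much with either. By any amount 26 of the 32 were lower with both siRNAs and 0 higher with both, beside 22.3% of kept genes lower and 18% higher. Genes equal to control count as neither, which was 23.7% of kept genes with siRNA-1 and 25.7% with siRNA-2. Of the 32 only DBF4 and TIPIN equalled control, with siRNA-1, so these shares are not like for like. With centred arrays or quantile normalization 2 of the 32 were higher with both, and over the alternatives 24 to 27 were lower with both. Their medians were -0.14 with siRNA-1 and -0.37 with siRNA-2. The lower S phase genes were already seen on these arrays before the lists were written, so the count is no independent evidence.

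Of the 16 kept genes of origin licensing and firing, MCM3, a subunit of the replicative helicase, was lowest with siRNA-1. Its ratio was -1.06 there and -0.38 with siRNA-2. CDC6, which loads that helicase, had -0.37 and -0.52. The helicase subunits MCM4 (-0.19 and -0.33) and MCM7 (-0.15 and -0.15, from equal siRNA values) were lower by less than 1.5-fold. The initiation factor MCM10 (-0.26 and -0.34) was too. GINS4 (0.17 and -0.71) and GINS2 (-0.24 and -0.59), subunits of the GINS complex of the moving fork, passed the limit with siRNA-2 only, and GINS3, of the same complex, had 0.19 and -0.16. DBF4, the activating subunit of the CDC7 kinase, had the control value with siRNA-1 and a ratio of 0.09 with siRNA-2. The medians were -0.12 and -0.35.

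All 6 kept genes of nucleotide and DNA synthesis were lower than control with both siRNAs. DCK, at -0.01 with each from equal siRNA values, was however above control after centring or quantile normalization. The list had medians of -0.16 and -0.51. TYMS, the thymidylate synthase gene, was 1.29-fold (siRNA-1) and 1.55-fold (siRNA-2) lower. FEN1, the flap endonuclease gene, was 1.14-fold and 1.65-fold lower. RRM1 (-0.21 and -0.46) and RRM2 (-0.15 and -0.56), the ribonucleotide reductase subunits, and PCNA (-0.05 and -0.24), the sliding clamp, were between 1.04-fold and 1.48-fold lower.

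Among 10 further S phase targets ASF1B, a histone chaperone gene, was the 1 member past 1.5-fold with both. Its log2 level was 10.11 with siRNA-1 and 9.97 with siRNA-2, against 10.74 with control, so it was 1.54-fold and 1.71-fold lower. EXO1, an exonuclease gene, had ratios of -0.51 and -0.44, and TOPBP1, which helps to start replication, had -0.34 and -0.34. CASP8AP2, needed for histone gene expression, had -0.24 and -0.62, past the limit with siRNA-2. The chromatin genes UHRF1 (-0.12 and -0.41) and EZH2 (-0.08 and -0.43) and the MYC target CDCA7 (-0.14 and -0.36) passed with neither. SLBP, which binds histone mRNA, had -0.07 with each, and TIPIN, of the fork protection complex, had the control value with siRNA-1 and -0.31 with siRNA-2. The medians were -0.13 and -0.39.

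**Figure D4:**
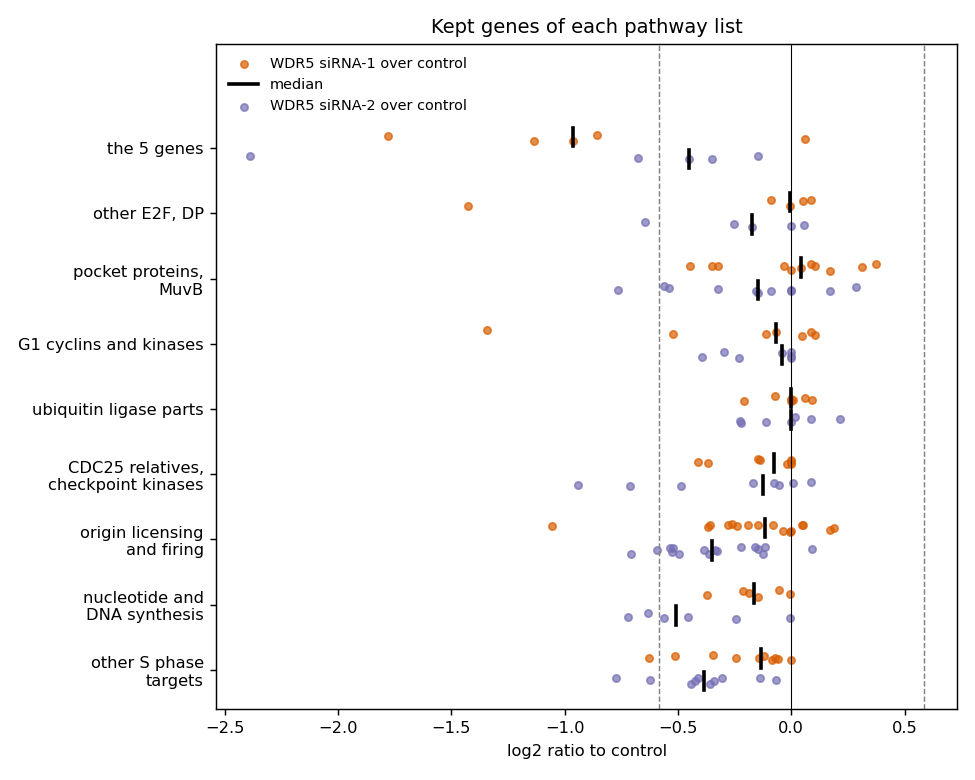
Log2 ratio to control (x axis) of the kept genes of each list (y axis), with WDR5 siRNA-1 in orange above WDR5 siRNA-2 in purple, 1 point per gene. Black bars are list medians and dashed lines mark 1.5-fold. The 3 lists of E2F targets at the bottom have medians from -0.12 to -0.16 with siRNA-1 and from -0.35 to -0.51 with siRNA-2, whereas the 5 genes at the top have -0.96 and -0.45. The list of kinase inhibitors, with 1 kept gene, is not drawn.

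Between the WDR5 siRNA arrays, 23 of the 32 kept E2F targets were higher with siRNA-1 and 7 were lower. Of kept genes 43.1% were higher and 35.5% lower by any amount, and genes equal on both arrays count as neither. The lowest of the 7 targets was MCM3, at a log2 ratio of siRNA-1 over siRNA-2 of -0.67. Of the 5 genes, CCNE1 and CCNE2 were higher on the siRNA-1 array and E2F1, E2F2 and CDC25A lower. The CCNE1 values compared here were both below the filter level. The other E2F and DP genes were divided, with 2 higher and 3 lower. E2F7 was 1.72-fold lower on the siRNA-1 array, while E2F3 and E2F8 had log2 ratios of 0.26 and 0.16. The G1 genes were divided too, with 4 higher and 3 lower. CDK2 was 2.07-fold lower on the siRNA-1 array, while CDK6 and CCNA2 had 0.28 and 0.34. None of these differences was tested, since each siRNA was represented by 1 array.

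The promoter search was extended to the kept genes that had a window. Of 421 with at least 1 match to the E2F site, 130 (30.9%) were lower with both siRNAs by any amount and 10.7% were higher with both. Of 5565 without a match, 1212 (21.8%) were lower and 18.3% higher. At 1.5-fold with both, 5 of the 421 genes (1.19%) were lower, E2F1 among them, against 51 of the 5565 (0.916%). For the 391 genes with a match that were on none of the lists, 27.4% were lower with both by any amount. At 1.5-fold with both, 4 of these 391 (1.02%) were lower. The 391 leave out E2F1, which was chosen with its ratios known. The 5565 without a match include CCNE1, chosen in the same way. Genes with an E-box, 793 of them, were lower with both by any amount in 19.4% of cases, against 22.9% of the 5193 without one, and higher with both in 23.0%, against 16.9%. The median ratio of the 421 genes was 0 with siRNA-1 and -0.02 with siRNA-2. These shares describe 3 arrays with a common control and carry no test.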

How the data were processed

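Expression was measured in 3 BE(2)-C samples, 1 array each for WDR5 siRNA-1, WDR5 siRNA-2 and control siRNA, grouped by the labels. The deposited table has 53617 probe sets. The deposited values lie between 1.34 and 14.9 and were taken to be log2; no source states their scale, so the folds depend on this. Array medians were 5.79, 5.79 and 5.81 for siRNA-1, siRNA-2 and control, and no scaling was added. The submitters' processing notes name MAS5 without its role. Background correction, normalization and genome build are not given in the sources used here. All 3 arrays had the same value in 37.1% of rows.

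Of the probe sets 16098 had 1 symbol, 0 had several and 37519 had none in the platform annotation. All 16098 matched RefSeq (GRCh38.p14) by Entrez identifier. Where a gene had several probe sets, the one with the highest mean was used. Genes with a mean at or above the median were kept. With 1 array per group no test was run, and called means at least 1.5-fold; the number of arrays limits precision.

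The members and lists were chosen with earlier results of these data known. The text names WDR5, the 5 genes, list members past 1.5-fold with both siRNAs or among the next 6 by the smaller absolute ratio, list extremes, markers, and the 3 kept genes nearest to each of the 5 (open reading frame, LINC, LOC, antisense and small RNA names left out). RBL1 and TFDP1 were named outside this rule, after their values were seen. Alternatives were quantile normalization, median centring, other filters, the mean of probe sets and other fold limits. Python 3.11.15, pandas 2.3.3 and numpy 2.4.6 were used.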

Additional observations from a re-analysis of the deposited data

Results flagged for a closer look

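CCNE2 lay on opposite sides of control with the siRNAs, at a log2 ratio of 0.060 (siRNA-1) and -0.35 (siRNA-2). It is singled out because its direction differed between the siRNA arrays, and with 1 array each the difference was not tested.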

How the results depend on the processing

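Of the 7 alternatives, only quantile normalization and median centring could change a ratio of the 5 genes or of WDR5. Each of these genes has 1 probe set, and filters and fold limits leave ratios as they are. No ratio to control of these genes changed direction under quantile normalization or centring. WDR5 was equal on the siRNA arrays as deposited. Its log2 ratio of siRNA-1 over siRNA-2 was -0.043 after quantile normalization and 0.0007 after centring. Quantile normalization and median centring left every call of the 5 genes and of WDR5 as it was. The mean of probe sets and no filter could not change these calls. The log2 ratio of CCNE1 ranged from -1.78 to -1.75 with siRNA-1 and from -2.39 to -2.36 with siRNA-2. The filter at the 75th percentile kept 3 of the 5 genes, without CCNE1 and E2F2, and it also removed WDR5. Of the 5 genes 2 were then lower with siRNA-1, 1 with siRNA-2 and 1 with both. Among 3721 kept genes it left 181 lower and 98 higher with siRNA-1, 154 lower with siRNA-2 and 30 lower with both. At a lower limit, 0.32 on the log2 scale, CCNE2 (-0.35) and E2F2 (-0.45) also passed with siRNA-2, which made 4 of the 5 genes. At that limit 892 kept genes were lower and 588 higher with siRNA-1, 833 and 495 with siRNA-2, and 281 and 184 with both, and of the E2F targets 7, 21 and 6 were lower with siRNA-1, siRNA-2 and both. At 2-fold E2F1 was lost with siRNA-2 (-0.68), and E2F2 (-0.96) and CDC25A (-0.86) with siRNA-1, which left 2 of the 5 lower with siRNA-1, 1 with siRNA-2 and 1 with both. At that limit 83 kept genes were lower and 39 higher with siRNA-1, 49 and 29 with siRNA-2, and 7 and 6 with both, and 1, 0 and 0 of the E2F targets were lower. Other filters and limits change these counts by their own construction. No paired analysis was possible because each group has 1 array. No detection call was made, so signal over background limits every fold.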
